A study of Mus musculus with 14 samples.

Results

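The SOCS family was followed as 8 genes, Socs1 to Socs7 and Cish, taken by gene symbol from the 17656 genes that each liver expression table lists. All 8 were found, with 1 row each, in all 14 tables. Each table belonged to 1 mouse on the C57BL/6 background, 8 weeks old, and gave expression as TPM (a length-corrected share, scaled to 1000000 transcripts in each library). The groups were 3 WT mice given saline, 3 Ythdf1-/- mice given saline, 4 WT mice given ConA and 4 Ythdf1-/- mice given ConA. ConA (Concanavalin A, a plant lectin that activates T cells and is used as a model of immune-mediated hepatitis) was injected into the tail vein at 8 mg/kg, and every liver was taken at 8 h as whole tissue. KO stands below for a mouse labelled as a Ythdf1 knockout, a line in which the gene of the m6A reader YTHDF1 is deleted in the whole animal rather than in 1 cell type.

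Cytokines such as IL-6, interferon gamma, growth hormone and IL-2 signal through receptor-bound JAK kinases, which phosphorylate STAT transcription factors. STATs then switch on SOCS genes, and the SOCS proteins close the loop. Each has an SH2 domain that binds phosphorylated receptors or kinases and a SOCS box that recruits elongins and a cullin ubiquitin ligase. SOCS1 and SOCS3 also carry a short region that blocks the kinase itself. In the liver SOCS1 is known as the brake on interferon gamma signalling, SOCS3 as the brake on gp130, the shared receptor chain of IL-6 and its relatives, and SOCS2 and CISH as brakes on the growth hormone receptor and STAT5. SOCS4 to SOCS7 are less well understood, and several of them have been tied to receptor tyrosine kinases and insulin signalling.

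Some facts of the libraries bear on all that follows. TPM does not keep the read depth, so all errors given here come from differences between mice. Between 9853 and 10793 genes reached a TPM of 1 in a library, and the 10 highest genes took 23.3% to 29.5% of the transcripts. WT saline replicates 2 and 3 were nearly identical, with a median log2 ratio over genes of 0.0780 in size, while the 17 remaining pairs within a group gave 0.127 to 0.404, and the labels do not say how they are related. Replicate 3 stood apart in both ConA groups. After saline, Ythdf1 was at 12.0 to 13.9 TPM in the WT mice and at 18.4 to 20.8 in the KO mice. After ConA, the WT mice had 18.7 to 25.6 TPM of it and the KO mice 15.5 to 26.2. It was thus not lower in the libraries labelled KO, a value for the whole gene does not check the deletion, and every genotype comparison below rests on the labels.

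The 250 bases before a RefSeq start are shown for the 2 members that responded most to ConA. The pathways that the family brakes act through STAT sites (searched as TTCNNNGAA) and IRF sites (searched as GAAA, any 2 bases and GAAA again), both read on either strand. The promoter table holds 4 of the 8 members, Socs1, Socs3, Socs4 and Cish, in the build GRCm38.p6. The Socs1 window is chr16:10785537-10785786 on the minus strand, directly before the gene, and its capitals mark a pair of overlapping IRF matches that span the bases 83 to 68 before the start. The Socs3 window is chr11:117969367-117969616, also on the minus strand, and its capitals mark 1 STAT match at 154 to 146 bases before the start used. That Socs3 window ends 181 bases before the first exon of the coding GENCODE transcript, so other annotated starts lie close by. It also lies inside the RefSeq span of the gene, which reaches 117970336, so it is not upstream of the whole gene.
Socs1: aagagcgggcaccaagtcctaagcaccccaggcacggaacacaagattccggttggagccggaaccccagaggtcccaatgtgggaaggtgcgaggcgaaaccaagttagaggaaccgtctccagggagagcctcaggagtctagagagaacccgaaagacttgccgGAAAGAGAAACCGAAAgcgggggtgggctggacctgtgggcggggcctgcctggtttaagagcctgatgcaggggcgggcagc
Socs3: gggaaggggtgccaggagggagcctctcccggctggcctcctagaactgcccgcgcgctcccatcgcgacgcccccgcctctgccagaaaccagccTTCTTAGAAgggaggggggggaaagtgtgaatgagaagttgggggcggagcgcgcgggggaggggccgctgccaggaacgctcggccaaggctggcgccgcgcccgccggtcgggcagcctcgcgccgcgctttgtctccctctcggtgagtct
Neither motif was found in the windows of Socs4 and Cish, but all 250 bases of the Cish window lay in exons of its coding GENCODE transcript, past its start, so the window does not cover the sequence before that start. Of 32851 promoter windows of this length, 7.02% held the STAT motif and 2.98% held the IRF motif. A match is a run of letters and not a shown binding site, and a missing match covers this window only. The Socs1 and Socs3 windows were rich in G and C, at 61.2% and 71.6%, against a median of 52.4% over all windows.

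In saline livers the family was mostly Socs2. Summed over the 8 genes, the WT saline libraries held 39.2 to 53.8 TPM, and Socs2 made up 53.8% to 57.4% of it. Its mean was 25.0 ± 5.17 TPM (SD, n = 3), above all the others. Cish followed at 7.50 ± 2.20, then Socs3 at 4.03 ± 0.576 and Socs6 at 3.50 ± 0.437, whose ranges overlapped each other. Socs5, Socs7, Socs4 and Socs1 were at 1.40, 1.33, 0.967 and 0.687 TPM. Socs1 was the lowest member, with 38.7% of all listed genes below it. KO saline livers had nearly the same order, except that Socs6 at 3.57 TPM came above Socs3 at 2.75 with overlapping ranges, and Socs1 at 0.857 came above Socs4 at 0.517 with ranges apart. Levels between genes are compared here on the TPM scale, which is per length.

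After ConA the family was mostly Socs1 and Socs3. The summed level of the WT mice was then 144 to 276 TPM and that of the KO mice 188 to 323 TPM, with no overlap with the saline libraries of the same genotype. Socs1 was the highest member on average in both ConA groups, at 115 ± 35.5 TPM in WT and 113 ± 29.8 TPM in KO (SD, n = 4). Its share of the family rose from 1.23% to 2.04% in WT saline libraries to 45.6% to 62.8% in WT ConA libraries, while the share of Socs2 went down to 4.06% to 11.7%. Socs3 came next, at 50.2 ± 15.5 and 81.4 ± 31.5 TPM, and its range met that of Socs1 in both groups. Cish and Socs2 formed the next pair, with overlapping ranges, and the remaining 4 members stayed between 0.87 and 6.02 TPM.

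**Figure D1:**
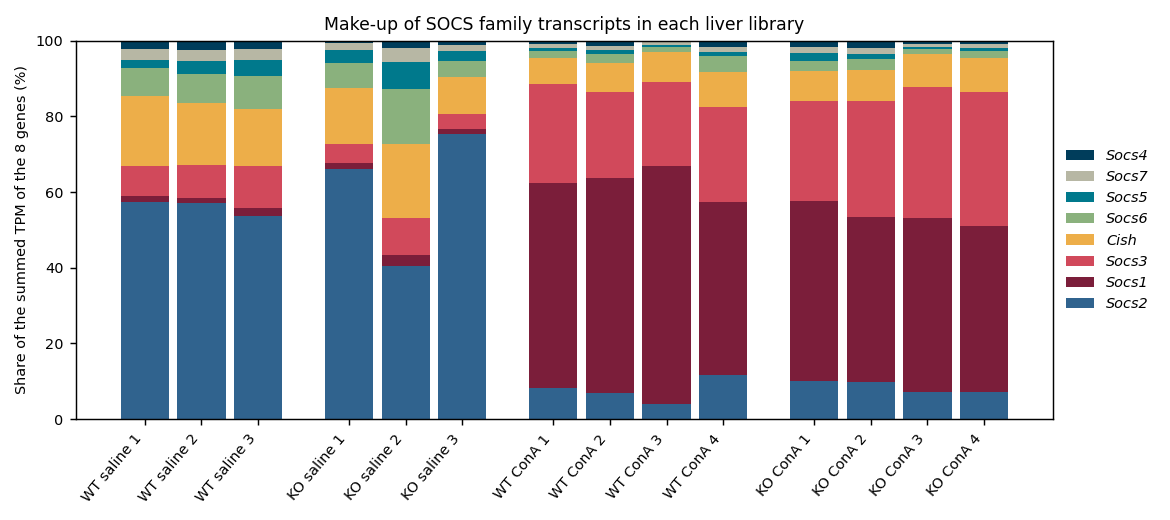
Share of each SOCS gene in the summed TPM of the 8 genes (vertical axis, %), as a stacked bar for each of the 14 liver libraries, named by group and replicate. Socs2 takes 40.4% to 75.4% of the bar in the 6 saline libraries, and Socs1 takes 43.6% to 62.8% in the 8 ConA libraries.

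Socs1, the brake on interferon gamma signalling, showed the largest ConA difference in the family. It was at 0.76, 0.48 and 0.82 TPM in the WT saline mice and at 149.97, 123.74, 120.40 and 65.52 TPM in the WT ConA mice. In KO mice it was at 0.93, 0.74 and 0.90 TPM after saline and at 93.09, 82.26, 135.49 and 141.63 TPM after ConA. Saline and ConA mice did not overlap in either genotype, and the lowest ConA library was WT replicate 4. The mean rose by a factor of 167 in WT and 132 in KO, which moved Socs1 from place 10812 to place 873 among the 17656 genes in WT liver. On the log2(TPM + 1) scale, which understates changes of low genes, the difference was 6.05 (SE 0.257, limma adjusted p = 3.97e-07) in WT and 5.90 (SE 0.196, adjusted p = 3.89e-09) in KO. The adjusted p-values are Benjamini-Hochberg values over all genes tested, and a gene was called where its value was under 0.05. Socs1 passed the minimum TPM of 1 only through the ConA mice, and without that minimum it was still called in both genotypes.

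Socs3, the brake on gp130, rose next most. It was at 4.29, 3.37 and 4.43 TPM in WT saline and 71.84, 50.18, 42.50 and 36.17 TPM in WT ConA. In KO it was at 2.98, 2.58 and 2.69 TPM after saline and 51.62, 57.51, 102.25 and 114.38 TPM after ConA. Again no saline mouse reached any ConA mouse, and KO ConA replicates 3 and 4 stood above all WT ConA mice. The ratio of means was 12.5 in WT and 29.6 in KO. The log2 difference was 3.31 (SE 0.223, limma adjusted p = 4.38e-06) in WT and 4.38 (SE 0.259, adjusted p = 1.96e-07) in KO.

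Cish, a STAT5 target that acts on growth hormone, IL-2 and related receptors, rose less. Its levels were 10.03, 6.45 and 6.02 TPM in WT saline and 19.48, 16.74, 15.63 and 13.18 TPM in WT ConA. In KO they were 8.86, 5.03 and 6.83 TPM after saline and 15.05, 15.57, 25.77 and 28.82 TPM after ConA. The groups of a genotype were apart, though the highest saline and lowest ConA values in WT lay close together. The ratio of means was 2.17 in WT and 3.08 in KO, with log2 differences of 1.04 (SE 0.197, limma adjusted p = 0.00183) and 1.47 (SE 0.253, adjusted p = 4.19e-04). A pair of genes on the opposite strand overlaps Cish, and 84.2% of the 50-base stretches of its transcript occur in no other gene, so some reads may have been shared.

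Socs2, which with Cish restrains growth hormone signalling, was the only member with a lower mean after ConA in both genotypes, and the difference did not pass the test in either. It was at 30.93, 22.41 and 21.59 TPM in WT saline and 22.48, 15.23, 7.78 and 16.75 TPM in WT ConA. In KO it was at 39.63, 10.48 and 52.79 TPM after saline and 19.71, 18.43, 21.19 and 22.96 TPM after ConA. In WT only replicate 1 of the ConA mice reached into the saline range, whereas in KO a single saline mouse, replicate 2, lay below every ConA mouse. The log2 difference was -0.72 (SE 0.301, limma adjusted p = 0.0719) in WT and -0.44 (SE 0.412, adjusted p = 0.361) in KO. Without KO saline replicate 2 the KO difference was -1.12 and Socs2 was called lower (adjusted p = 3.26e-04). Without WT ConA replicate 1 the WT difference was -0.91 and was called too (adjusted p = 0.0282). Some reads of Socs2 could also match other genes, since 81.6% of its 50-base stretches occur in no other gene.

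**Figure D2:**
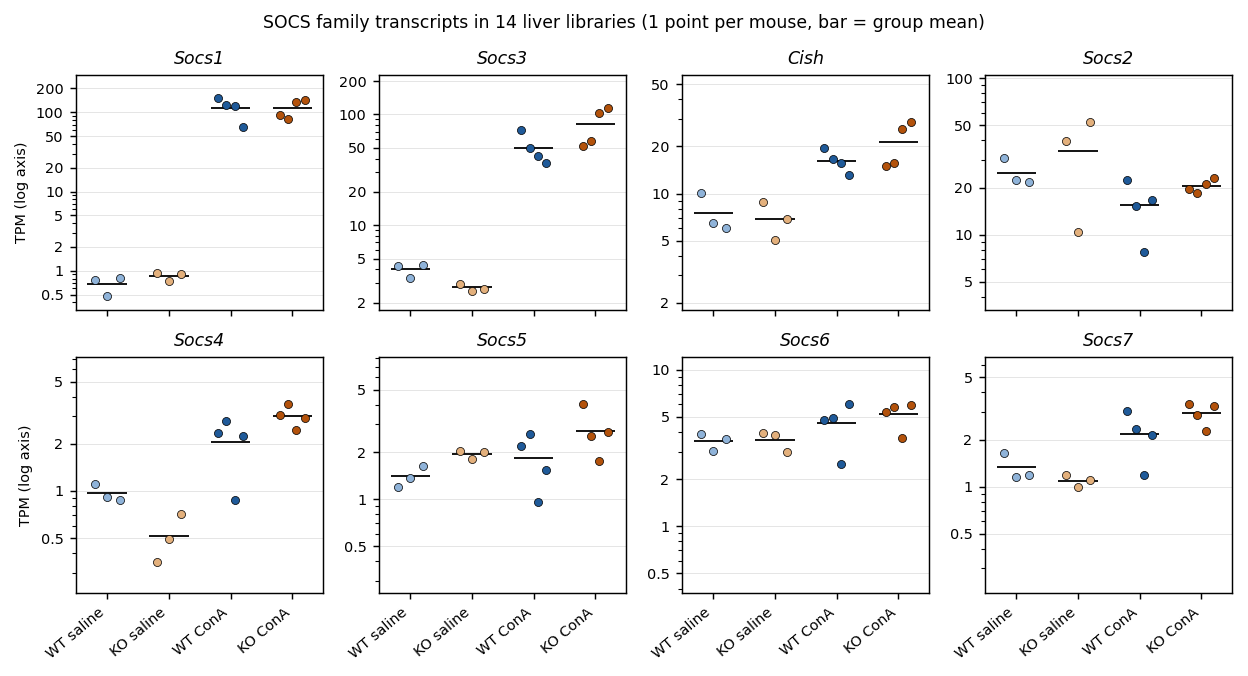
TPM of each SOCS gene (vertical axes, logarithmic, a separate range for each gene) in the 14 liver libraries by group, with 1 point for each mouse in replicate order and a bar at the group mean. Socs1, Socs3 and Cish are apart between saline and ConA in both genotypes, while Socs2 is higher in KO saline replicates 1 and 3 than in all ConA mice.

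Socs4 to Socs7 did not pass 6.02 TPM in any library. Socs4 was at 1.11, 0.91 and 0.88 TPM in WT saline and 2.35, 2.79, 0.87 and 2.23 TPM in WT ConA, a log2 difference of 0.59 (limma adjusted p = 0.0558). In KO it was at 0.35, 0.49 and 0.71 TPM after saline and 3.07, 3.58, 2.45 and 2.92 TPM after ConA, a log2 difference of 1.40 (adjusted p = 2.06e-05). The groups were apart in KO, while in WT replicate 3 of the ConA mice lay at the saline level. Socs7 showed the same picture, with 1.63, 1.16 and 1.19 TPM in WT saline, 3.03, 2.35, 1.19 and 2.13 TPM in WT ConA and a log2 difference of 0.42 (adjusted p = 0.116). Its KO values were 1.19, 0.99 and 1.10 TPM after saline and 3.36, 2.85, 2.25 and 3.27 TPM after ConA, with a called log2 difference of 0.90 (adjusted p = 4.55e-04). Socs7 has been described as an adaptor as well as a brake, and it is the member with the longest coding sequence. In KO saline Socs4 was below 1 TPM in every mouse, so it was tested in KO only through the ConA mice, as was Socs7, with 1 saline mouse just under 1 TPM. In WT, saline replicates 2 and 3 were below 1 TPM of Socs4, so there too it was tested only with the help of the ConA mice.

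Socs5, a brake tied to IL-4 and EGF receptors, ranged from 0.96 to 2.60 TPM over the WT ConA mice and from 1.75 to 4.04 TPM over the KO ConA mice. Its ConA log2 difference was 0.20 in WT (limma adjusted p = 0.446) and 0.32 in KO (adjusted p = 0.185), and saline and ConA mice overlapped in both genotypes. Socs6, known from insulin and KIT signalling, ranged from 2.49 to 6.02 TPM over the WT ConA mice and from 3.66 to 5.97 TPM over the KO ConA mice. Its log2 difference was 0.26 in WT (adjusted p = 0.377) and 0.43 in KO (adjusted p = 0.0615). In WT, replicate 3 of the ConA mice was the lowest ConA value of Socs2, Socs4, Socs5, Socs6 and Socs7. Without it, Socs4 (0.81, adjusted p = 5.42e-04), Socs6 (0.46, adjusted p = 0.0121) and Socs7 (0.59, adjusted p = 0.00721) were called higher in WT as well. Of these, Socs4 entered the test only with the help of the ConA mice, where it was high. Without KO ConA replicate 3, Socs5 (0.45, adjusted p = 0.0291) and Socs6 (0.56, adjusted p = 0.0036) were called higher in KO. Leaving out these libraries also changed the calls over all genes. In WT they went from 2368 higher and 3336 lower of 10768 to 3439 and 3609 of 10692. In KO they went from 3723 higher and 3376 lower of 10988 to 4440 and 3374 of 10881.

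Counted together, 3 of the 8 members were called in WT, all higher after ConA, and 5 of the 8 in KO, also all higher. Of all 10768 genes tested in WT, 53.0% were called in either direction and 22.0% were called higher. In KO, 64.6% of 10988 genes were called and 33.9% were called higher. Without the TPM minimum the members' counts were the same, 3 and 5, beside 15.4% and 23.3% of all genes called higher. The median log2 difference of the members was 0.51 in WT and 1.15 in KO, against -0.07 and 0.07 over all genes tested. With all 14 libraries scaled by their median ratio, 6 members were called in WT, with Socs4 and Socs7 higher and Socs2 lower in addition. Over all genes this scaling gave 2955 higher and 3097 lower of 10740 in WT, against 2368 and 3336 of 10768. In exact two-sided permutation tests with 4 mice against 3, every member whose groups were apart had p = 0.0571, the smallest p that this design allows, and an adjusted p of 0.203 over the 32 values tested. For these bulk livers, a change in the number of cells of a type and a change in RNA per cell cannot be told apart.

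**Figure D3:**
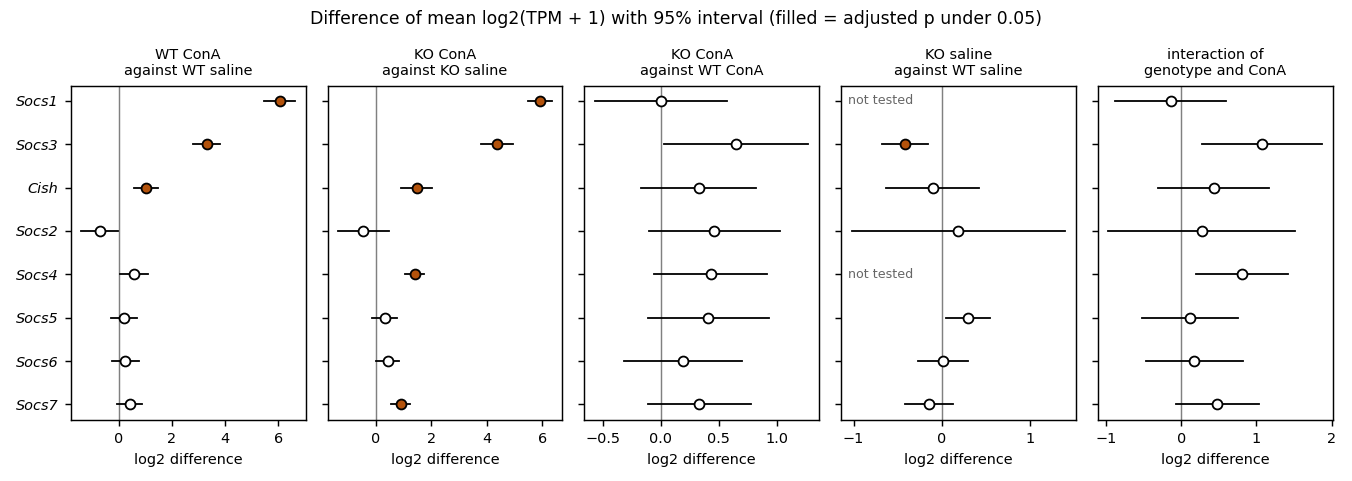
Difference of mean log2(TPM + 1) for each SOCS gene (horizontal axes, a separate range for each panel) with its 95% interval, in the 4 comparisons of groups and in the interaction of genotype and ConA. Filled points have a limma adjusted p under 0.05: Socs1, Socs3 and Cish in WT, these and Socs4 and Socs7 in KO, and Socs3 between the saline groups, while Socs1 and Socs4 were not tested between the saline groups.

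Between KO ConA and WT ConA livers no member was called, against 0.428% of all genes (45 of 10519). At an unadjusted p under 0.05 limma gave 1 member, Socs3, and 1753 genes in all. Socs1 hardly differed in mean, with a log2 difference of 0.00 and a 95% interval from -0.57 to 0.57. Socs3 had the largest difference, 0.65 higher in the libraries labelled KO (95% interval 0.03 to 1.27, unadjusted p = 0.0417, adjusted p = 0.274), and 2 of the 4 KO mice lay above every WT mouse. Socs2 (0.46), Socs4 (0.43), Socs5 (0.41), Socs7 (0.33), Cish (0.33) and Socs6 (0.19) also had higher means in KO, with adjusted p-values between 0.366 and 0.734. The groups overlapped for all 8 members, and their median difference was 0.37 against 0.05 over all genes. In the exact permutation test the lowest p was 0.0571 for Socs4, with 0.0286 as the smallest possible, and 0.143 for Socs3.

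The balance of Socs1 to Socs3 within a library was looked at after their values were seen, and it is given without a test. The ratio of their TPM was 2.09, 2.47, 2.83 and 1.81 in the WT ConA mice and 1.80, 1.43, 1.33 and 1.24 in the KO ConA mice. The ranges were apart, although WT replicate 4 and KO replicate 1 nearly met. In saline the order was the other way round, with ratios of 0.142 to 0.185 in WT and 0.287 to 0.335 in KO, where Socs1 was near or below 1 TPM.

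Between the saline groups 6 members could be tested, and Socs3 was called lower in KO, by -0.42 on the log2 scale (SE 0.112, limma adjusted p = 0.042), with 19.2% of all 10459 genes called. All 3 KO mice were below all 3 WT mice, at 2.58 to 2.98 against 3.37 to 4.43 TPM. This call was lost in most other settings, among them the fit that counts WT saline replicates 2 and 3 as 1 mouse (adjusted p = 0.102) and every fit that left out 1 library. Socs5 was higher in all 3 KO mice, at 1.80 to 2.03 against 1.20 to 1.62 TPM (difference 0.30, adjusted p = 0.083). Socs4 was lower in all 3, at 0.35 to 0.71 against 0.88 to 1.11 TPM, but was not tested at these levels. With 3 mice against 3, the exact permutation test gave p = 0.1 for each of these members, the smallest it allows. Socs2 varied most among the KO saline mice, with an SD of 21.7 TPM around a mean of 34.3, and its difference of 0.19 had a 95% interval from -1.02 to 1.40.

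Whether ConA moved a member differently in the genotypes was tested as an interaction over all 14 libraries. None of the 8 was called, against 4.78% of 11327 genes. At an unadjusted p under 0.05 limma gave 2 members, Socs3 and Socs4, and 2862 genes in all. The ConA difference of Socs3 was 1.07 larger in KO (95% interval 0.27 to 1.87, adjusted p = 0.101), and that of Socs4 was 0.81 larger (95% interval 0.20 to 1.42, adjusted p = 0.103). For Socs1 the interaction was -0.14, with an interval from -0.88 to 0.60. The other members lay between 0.11 and 0.48, all with intervals across 0. The median over all genes was itself 0.14 and fell to 0.03 when the libraries were scaled by their median ratio, where Socs3 was at 0.95 and Socs4 at 0.74. When replicate 3 of both ConA groups was left out, a choice made after seeing the data, Socs4 was called (0.66, adjusted p = 0.0283) and Socs3 was not (0.87, adjusted p = 0.154). Interactions called over all genes were 299 higher and 242 lower, and only 19 and 9 with WT saline replicates 2 and 3 averaged. The interactions named below for Elob, Ptpn2, Pias4, Stat3, Ifngr2 and Epor were not followed in that setting.

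The machinery that SOCS proteins recruit was read beside all genes tested, of which 53.0% were called in WT and 64.6% in KO. The shares called higher were 22.0% in WT and 33.9% in KO. Of 9 genes of the SOCS box ligase, 2 were called higher in WT and none lower. They were Ube2f (0.78, limma adjusted p = 4.59e-04) and Rnf7 (0.43, adjusted p = 0.0385), which encode the NEDD8-conjugating enzyme and the RING subunit of the CUL5 ligase. In KO 4 were higher, Ube2f, Rnf7, Cul2 and Cul5, and 3 were lower. The lower ones were Elob, the elongin B that docks on the SOCS box, at -1.39 (adjusted p = 4.48e-06), Nedd8 at -0.69 and Rbx1 at -0.38. Elob averaged 586 TPM in KO saline, 316 in WT saline, 275 in WT ConA and 222 in KO ConA, so the KO fall started from a higher saline level. Its interaction was -1.17 (adjusted p = 0.0213). Elongin C, Eloc, was not called in any comparison. The list's median was 0.02 in WT and 0.26 in KO.

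Among 11 other brakes on the pathway, 3 were called higher and 2 lower in WT, and 8 higher and 2 lower in KO. Of all genes tested, 53.0% were called in WT, 22.0% of them all being higher, and 64.6% in KO, 33.9% being higher. The counts of the brakes are given as a description. The phosphatase genes Ptpn1 and Ptpn2, which act on JAKs and STATs, each rose by 1.79 in WT, and in KO they rose by 2.14 and 2.97. Usp18, the brake on type I interferon receptors, rose by 2.05 in WT and 2.72 in KO (adjusted p = 3.8e-07 in KO). The lower genes in both genotypes were Sh2b3, an adaptor that restrains JAK2, and Pias3, an inhibitor of STAT3, both named after their values were seen. The interaction was called for Ptpn2 (1.18, adjusted p = 0.0355) and for Pias4 (0.81, adjusted p = 0.0229), a SUMO ligase. The brakes' median was 0.11 in WT and 0.79 in KO.

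Of 9 tested JAKs and STATs, the kinases and transcription factors upstream of the SOCS genes, 3 were called higher and 1 lower in WT and 5 higher in KO. Among all genes tested, 22.0% were called higher in WT and 33.9% in KO, so these small counts are given as a description. Stat3 went from 24.8 to 91.3 TPM in WT and from 17.7 to 121 TPM in KO, with log2 differences of 1.81 and 2.70. Like Socs3 it had a lower mean in KO saline and a higher mean in KO ConA, and its interaction was called (0.89, limma adjusted p = 0.0314). Jak3 was higher in both genotypes (1.33 and 1.20) and Stat2 in WT (1.20). Jak1, Jak2 and Stat5a were called only in KO, at 1.25, 1.29 and 0.91, but their interactions were not called. Stat5b, a main carrier of the growth hormone signal in liver, was lower in WT (-0.58, adjusted p = 0.0152) and at -0.26 in KO (adjusted p = 0.186).

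Most cytokine transcripts were close to 0 in whole liver. Of 17 ligands 3 could be tested in WT and 4 in KO. Ifng, the ligand whose receptor SOCS1 restrains, was at 0 to 0.14 TPM in the saline mice. The WT ConA mice had 1.01 to 3.86 TPM of it and the KO ConA mice 5.02 to 12.14 TPM. Its log2 difference was 1.52 in WT and 2.93 in KO. It reached the TPM minimum only through the ConA mice, and without that minimum the limma adjusted p was 0.00354 in WT and 5.66e-05 in KO. Its difference between KO ConA and WT ConA was 1.38 (limma adjusted p = 0.0674, and 0.146 without the minimum), with the groups apart, whereas Socs1 had nearly the same mean in both. Csf3, which encodes the neutrophil growth factor G-CSF, was listed at 0 in all KO saline mice and likewise entered the KO test only through the ConA mice, with a log2 difference of 2.75 (adjusted p = 0.00109 without the minimum). Il6 did not pass 0.59 TPM and Il2 did not pass 0.35 TPM in any mouse. Igf1, made under growth hormone, and Ctf1, a gp130 ligand, were called lower in both genotypes. Ctf1 reached the minimum only with the help of the saline mice, and was at 0.43 to 0.90 TPM in KO ConA. Without the minimum its limma adjusted p was 0.00323 in WT and 1.35e-04 in KO.

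Receptor genes were called in both directions. In WT 9 of 19 tested were higher and 5 lower, and in KO 12 of 21 were higher and 4 lower, beside 53.0% and 64.6% of all genes called in either direction. Of the tested receptors, 6 in WT and 7 in KO reached the minimum only with the help of the ConA mice. Of all 22 without the minimum, 10 were higher and 5 lower in WT, and 12 higher and 4 lower in KO. The growth hormone receptor gene Ghr averaged 219 TPM in WT saline and 78.9 in WT ConA (-1.47, limma adjusted p = 2.31e-05), and 171 and 75.0 TPM in KO (-1.18). Prlr, the prolactin receptor, fell by 1.66 in WT and 1.20 in KO. Il6st, which encodes gp130, rose in WT (0.77, adjusted p = 0.0302) and in KO (1.09), and Osmr, its partner for oncostatin M, rose by 2.12 and 2.28. Csf3r, the G-CSF receptor of neutrophils, rose by 1.80 and 1.78. The interferon gamma receptor chain Ifngr1 was at 0.49 in WT (adjusted p = 0.0842) and was called in KO at 1.39. Ifngr2 and Epor, named after their values were seen, were the receptors with a called interaction, at 1.14 and -0.92. Epor reached the TPM minimum there only through the KO saline mice, at 1.33 to 1.55 TPM. In the other groups it was at 0.06 to 0.83 TPM, near the floor.

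The targets of the braked pathways were read without the TPM minimum first, because some were near 0 in saline and would enter a test only where ConA raised them. This choice was made after their values were seen. Of 17 interferon gamma targets, 16 were called higher in WT and 17 in KO, beside 15.4% and 23.3% of all genes tested in this way. With the minimum, 15 could be tested and all were called higher in both genotypes, but Nos2, Gbp5 and Cd274 entered only with the help of the ConA mice. The other 12 had a median log2 difference of 3.36 in WT and 3.97 in KO. Cxcl9 rose by 8.36 and 8.87 and Cxcl10 by 6.82 and 7.39, both chemokines that attract T cells. All 18 IL-6 and STAT3 targets were called higher in WT and 17 in KO, with and without the minimum, and 16 of them reached it in saline as well. Saa2, an acute-phase protein gene, rose by 8.60 and 9.72, Lcn2, an iron-scavenging protein gene, by 7.78 and 8.02, and Serpina3n, a protease inhibitor gene, by 3.99 and 5.65. Of 12 IL-2 and STAT5 targets of lymphocytes, 11 were called higher in each genotype without the minimum. With it 7 and 8 could be tested, of which 3 and 4 entered only with the help of the ConA mice.

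Growth hormone and STAT5 targets of liver were called lower more often than higher. Of 14 tested, 7 were lower and 3 higher in WT, and 8 lower and 3 higher in KO. Among all genes tested, 3336 of 10768 were called lower in WT and 3376 of 10988 in KO. Without the minimum, 5 of 15 targets were lower and 3 higher in WT, and 8 lower and 2 higher in KO. In that reading 3723 of 17065 genes were called lower in WT and 4049 of 17187 in KO. Igfals, which encodes a carrier of IGF1, fell by 3.86 in WT and 3.62 in KO. Between KO ConA and WT ConA, Mup20 (-1.59), Mup3 (-1.22) and Slco1a1 (-2.77) were called lower (limma adjusted p = 0.0369, 0.0315 and 0.0369), and Mup genes have close copies that can share reads. None of the 3 was called without the minimum (adjusted p = 0.0954, 0.0843 and 0.107), without KO ConA replicate 3 (0.0849, 0.0542 and 0.0849) or without KO ConA replicate 4 (0.106, 0.0988 and 0.106). Slco1a1 reached the minimum only with the help of the WT ConA mice, at 6.38 to 31.04 TPM. In KO ConA it was at 0.10 to 1.44 TPM, and its call was also lost with a pseudocount of 0.1 (limma adjusted p = 0.0506). Bcl2l1, a survival gene of the lymphocyte list, was called higher in KO ConA (1.06, adjusted p = 0.0369), and this call too was lost without the minimum (adjusted p = 0.0931). The Bcl2l1 call was also lost under median-ratio scaling (adjusted p = 0.0776) and with the replicate number as a block (adjusted p = 0.053). Of the fits that left out 1 library, only that without WT ConA replicate 1 kept it (adjusted p = 0.0342). The lists share some genes, among them Stat3 and Ghr, and were written with earlier results of these data known.

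**Figure D4:**
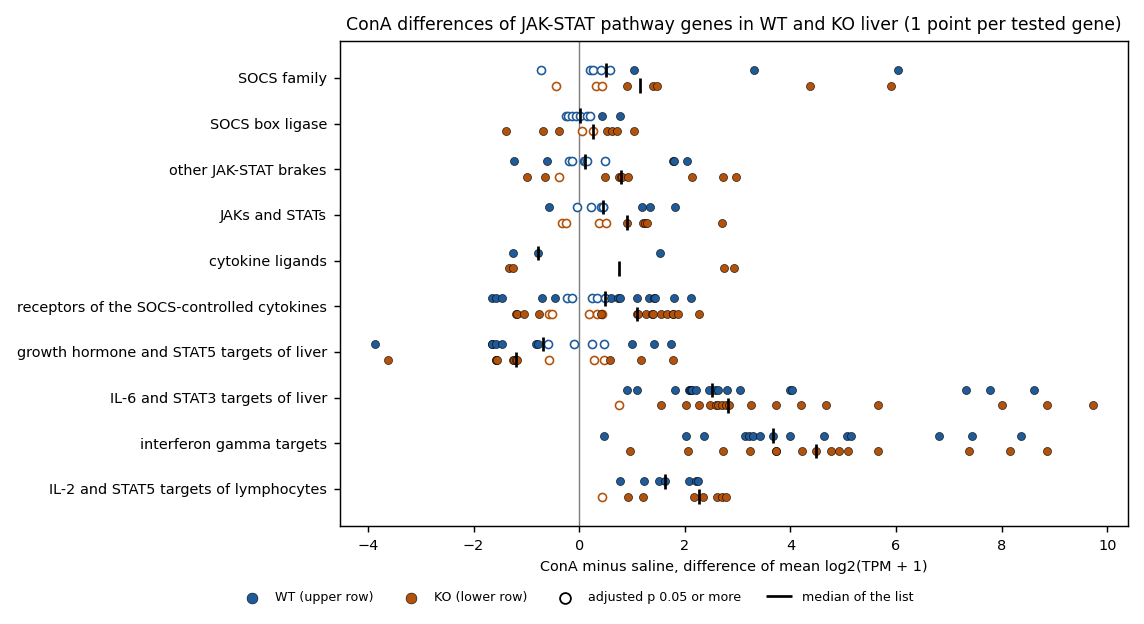
ConA minus saline difference of mean log2(TPM + 1) (horizontal axis) for every tested gene of 10 lists around the SOCS genes (rows), in WT (upper points of a row) and KO (lower points), filled where the limma adjusted p is under 0.05, with a black line at the list's median. The medians of the 15 tested interferon gamma targets are 3.67 in WT and 4.49 in KO, of which 3 reached the TPM minimum only with the help of the ConA mice, and those of the growth hormone and STAT5 targets are -0.68 and -1.19.

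Markers of cell types moved with ConA beside the SOCS genes. The summed TPM of 8 hepatocyte markers was 109363 to 130487 in WT saline and 103806 to 124574 in KO saline, and after ConA it was 59728 to 82776 in WT and 53703 to 66108 in KO. Alb, the albumin gene, made up most of this sum, at a mean of 76910 TPM in WT saline and 47311 TPM in WT ConA. Of the 8 genes, 4 were called lower and 1 higher in WT, and 5 lower and 2 higher in KO. With no TPM minimum, 2 were lower and 1 higher in WT, and 4 lower and 1 higher in KO. Among all genes tested, 22.0% were called higher in WT and 33.9% in KO, or 15.4% and 23.3% with no minimum. Genes called lower were 3336 of 10768 in WT and 3376 of 10988 in KO. With no minimum they were 3723 of 17065 and 4049 of 17187. These shares stand beside all marker counts here. The summed TPM of 10 neutrophil markers was 9.61 to 11.8 in WT saline and 5.44 to 11.0 in KO saline, and after ConA it was 328 to 580 in WT and 428 to 987 in KO. Without the TPM minimum 8 of the 10 were called higher in each genotype, and 2 of the 10 were listed at 0 in all KO saline mice. Most of these genes reached the minimum only with the help of the ConA mice (8 of 9 tested in WT and 7 of 9 in KO). T cell markers summed to 1.61 to 2.13 TPM in the WT mice and 2.74 to 3.30 in the KO mice after saline, and to 3.90 to 5.77 and 6.51 to 9.38 TPM after ConA. These sums are near the floor. Of the 9 genes, 9 were under 1 TPM in all WT saline mice, 8 in KO saline, 7 in WT ConA and 4 in KO ConA. Without the minimum 3 of the 9 were called higher in WT and 4 in KO, and 0 lower. The mean of Cd4 was lower after ConA in both genotypes, without a call. The 9 Kupffer cell and macrophage markers summed to between 97.1 and 160 TPM in the WT saline mice and between 22.8 and 63.6 in the WT ConA mice, which did not overlap, and 6 were called lower and none higher. In KO the sums were 41.2 to 99.4 TPM after saline and 24.1 to 68.2 TPM after ConA, which overlapped, with 4 called lower and 1 higher. Some of the 6 lower genes in WT reached the minimum only with the help of the saline mice, where they were high. Among them was Vsig4, with a mean of 0.718 TPM in WT ConA. With no minimum the counts of these markers were the same in both genotypes. The 6 stellate cell markers summed to between 15.2 and 60.7 TPM in the WT mice after saline and between 56.1 and 95.5 in the KO mice, which overlapped, and Dcn held most of it. The 7 endothelial markers summed to between 22.3 and 31.0 TPM in the former and between 34.5 and 57.9 in the latter, which did not overlap. After ConA both of these sums overlapped between the genotypes. Hepatocyte markers were present at high levels in every library, as the tissue label says. The part of these markers in the differences of the SOCS genes was not tested.

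For each member the 3 genes with the most similar course over the 14 libraries were sought among 11327 genes, by the root mean square difference of log2(TPM + 1) after centring each gene. For Socs1 they were Ubd, an interferon-induced ubiquitin-like protein, at 0.41, then Calhm6 (0.44) and Cdkn1a (0.45). Ubd averaged 1.42 and 0.590 TPM in WT and KO saline and 155 and 144 TPM in WT and KO ConA. For Socs3 they were Arid5a (0.22), an RNA-binding protein that stabilizes inflammatory transcripts, Junb (0.31) and Irf1 (0.34). Irf1 averaged 25.0 TPM in WT and 16.3 TPM in KO after saline, and 284 and 386 TPM after ConA, so its KO mean, like that of Socs3, was lower in saline and higher after ConA. For Cish they were Rbpms, Shb and Gtf2b, at 0.22 to 0.25, and for Socs2 Cdh1, Ski and Sdr42e1, at 0.34 to 0.42. Socs4 was closest to Rbpj (0.11), Tlk2 and Chmp2b, Socs5 to Ap1ar (0.16), Mllt3 and Stx7, Socs6 to Chmp1b (0.09), Mtss1 and Krit1, and Socs7 to Csnk1g1 (0.10), Lrch1 and Usp31. The measure favours genes with a similar size of change, and it includes the differences between groups.

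The members differ in transcript features that the selection did not use. In the GENCODE coding transcripts, AU-rich ATTTA pentamers, a feature of short-lived cytokine transcripts, numbered 0 in the 3′UTR of Socs1, 4 in that of Socs3, 3 in that of Cish and 17 in that of Socs4. Per kilobase this came to 0.0, 2.71, 2.76 and 3.28, against a median of 1.25 over 15353 genes. The core of the m6A motif, GGAC, which YTHDF1 targets often carry in methylated form, occurred at 5.16 per kilobase in Socs1, 5.09 in Socs3, 6.75 in Socs2 and 4.91 in Cish, against a median of 4.21. In Socs4 and Socs6 it occurred at 1.60 and 1.82 per kilobase. Letters in a transcript do not show that a site is methylated or bound.

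In the mouse build GRCm38.p6, Socs1 lies on chr16:10783808-10785536 and Socs3 on chr11:117966079-117970336, both on the minus strand. Socs2 lies on chr10:95383903-95417321, also on the minus strand. On the plus strand, Socs4 lies on chr14:47276920-47296102, Socs5 on chr17:87107278-87137647, Socs7 on chr11:97362292-97398542 and Cish on chr9:107296659-107302784. The values are for whole genes, and their gene numbers (among them 12703 for Socs1, 12702 for Socs3, 12700 for Cish and 216233 for Socs2) were used to look up these positions. The rows themselves were taken by symbol, and Socs4 and Socs7 have shared older names.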

How the data were processed

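Total RNA of mouse liver was sequenced on a BGISEQ-500, with single reads 50 bases long. The authors deposited 1 table of TPM values for each mouse, with 2 decimals. The submitters' processing notes name Bowtie2, RSEM 1.3.1 and GRCm38.p6, while the methods of the study name STAR, HTSeq and edgeR. The annotation was not given in the sources used here. Group and replicate came from the sample labels. The labels' biological replicates are separate mice.

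A gene entered a test when its TPM reached 1 in a number of libraries equal to the size of the smaller group (for the interaction, 3). The values were analysed as log2(TPM + 1) in R 4.3.3, where limma 3.58.1 fitted linear models and moderated the variances with a trend on the mean level (eBayes), with p-values adjusted over all genes tested and a threshold of 0.05. Each pair of groups was fitted on its own libraries, and the interaction on all 14. Exact permutation tests, sequences and figures used Python 3.11.15, pandas 2.3.3, SciPy 1.17.1 and matplotlib 3.10.9. Every member is named. Other genes were named from these sets, though not all of them: of each list the 3 with the smallest p in WT ConA against WT saline and in KO ConA against WT ConA, the ligase, JAK and STAT genes, partner cytokines and receptors, and the 3 genes most alike to a member. Members and lists were chosen with earlier results of these data known, and 1 gene of the lists is not reported here. The fits were tested on simulated data. Sequences are from RefSeq and GENCODE vM21. The exact tests were two-sided and adjusted over 32 values. Other pseudocounts, filters, scalings and sets of libraries were tried, as given at the end.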

Additional observations from a re-analysis of the deposited data

How the results depend on the processing

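Other settings were tried 1 at a time: a pseudocount of 0.1, a filter at a TPM of 5 or none, median-ratio scaling, a fit of all 14 libraries, WT saline replicates 2 and 3 averaged, the replicate number as a block, and the removal of single libraries. In WT ConA against WT saline, 3 members were called in the fit as reported, 6 under median-ratio scaling, 4 with all 14 libraries (Socs4 in addition) and 3 to 6 with each library left out. In KO ConA against KO saline, 5 were called, 3 with the filter at a TPM of 5, which removed Socs4 and Socs7 from the test, 6 under scaling (Socs6 in addition) and 5 to 7 with each library left out. In KO saline against WT saline, 1 was called, and 0 with the filter at 5, which removed Socs3 from the test, and also with no filter, under scaling, with all 14 libraries, with replicates 2 and 3 averaged and with any 1 library left out. The cause of the other losses was not tested. KO ConA against WT ConA and the interaction gave 0 under every planned setting, and leaving out replicate 3 of both ConA groups, added after seeing the data, gave 0 in the former and 1 in the latter. No member changed direction past the threshold. Socs1, Socs3 and Cish were called higher after ConA in both genotypes in every setting that tested them. Over all genes, ConA against saline gave 2368 higher and 3336 lower in WT as reported, and 2955 and 3097 under scaling. In KO these counts were 3723 and 3376 as reported, and 3938 and 3732 under scaling.

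With the replicate number as a block, Socs2 was called lower in WT (-0.78, adjusted p = 0.022), and no other member's call changed. Same-numbered mice did not deviate together in every pair (correlations from -0.19 to 0.41), so the numbers were not taken as pairs. Over all genes, KO ConA against WT ConA gave 36 higher and 9 lower, 12 and 13 under scaling, 116 and 24 with the replicate block, 416 and 224 with all 14 libraries and 1 and 2 with no filter. KO saline against WT saline gave 659 higher and 1350 lower, 744 and 771 under scaling, 200 and 132 with all 14 libraries, 387 and 571 with no filter and 29 and 20 with WT saline replicates 2 and 3 averaged. The interaction gave 299 and 242, 166 and 179 with no filter, 198 and 160 with the replicate block, 19 and 9 with those replicates averaged and 1158 and 433 without replicate 3 of both ConA groups. With 1 library left out, these 3 comparisons ranged from 4 higher and 1 lower to 44 and 8, from 28 and 17 to 690 and 2049, and from 15 and 7 to 482 and 287. Read depth is not kept in TPM, so the precision of members near 1 TPM, Socs4, Socs5, Socs7 and saline Socs1, cannot be given from counting.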
